A study of Mus musculus with 2 samples.

Results

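The genes described here carry acetylcholine signalling in the cerebral cortex: the muscarinic receptors Chrm1, Chrm2, Chrm3 and Chrm4, the nicotinic subunits Chrna4, Chrna5, Chrna7 and Chrnb2, the enzyme Ache and the receptor modulator Lynx1. They were chosen by symbol, and all 10 were found among 55536 annotated genes. The tissue was the left cerebral cortex of female B6CASTF1/J mice aged 14 days, offspring of a cross between C57BL/6J and CAST/EiJ parents, with no treatment or edited allele named in the labels. Total RNA, 300 ng for each library, was freed of ribosomal RNA, mixed with ERCC spike-in transcripts and sequenced by a stranded method in 2 libraries. Both belong to 1 group, so the design gives levels, ratios between genes, transcript shares and the difference between the libraries, but no comparison of conditions. The labels call the libraries biological replicates and give them the same donor entry, and how many mice each holds is not known. A description shared by both mentions 3 females, as does the tissue label of replicate 1, whereas that of replicate 2 names a female. If RNA of several mice was pooled, the SDs below are between pools.

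Acetylcholine reaches the cortex mainly along fibres of basal forebrain neurons and raises attention, arousal and plasticity. Muscarinic receptors are G-protein-coupled: the M1, M3 and M5 types work through Gq and phospholipase C, and the M2 and M4 types through Gi/o, which lowers cyclic AMP and opens potassium channels. Nicotinic receptors are ion channels of several subunits, in the brain most often alpha4 with beta2, or alpha7 alone. Acetylcholinesterase ends the signal by splitting the transmitter, and Lynx1 is a membrane-anchored protein of the Ly6 family that binds nicotinic receptors, dampens them and limits plasticity of the visual cortex.

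Expected counts of genes summed to 33.36M and 32.01M in replicates 1 and 2, and spike-ins took 0.359% and 0.361% of counts. All 6 excitatory neuron markers and all 7 interneuron markers were detected, meaning at 1 TPM or more in both libraries. Among the excitatory markers was Tbr1 (56.6 and 53.5 TPM), a transcription factor of cortical projection neurons. The libraries stood apart in several marker lists. Levels of 12 myelin genes summed to 2461 and 1375 TPM and 11 of them were called lower in replicate 2, as were 8 of 9 striatal genes. All 6 choroid plexus, all 5 red blood cell, 2 of 5 thalamic and 2 of 6 hippocampal genes were called higher. These calls are of the exact binomial test described further down, which called 11.8% of all tested genes lower and 8.5% higher. With edgeR, also described there, 11 of the myelin, 4 of the striatal, 3 of the choroid plexus and 0 of the red blood cell genes were called. TPM is scaled per transcript length and to the same total in each table, so levels of different genes can be set side by side, and levels below are TPM of the deposited gene table unless the second quantification is named. As this is bulk tissue, fewer cells of a type and less RNA per cell cannot be told apart.

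All 10 genes were detected in both libraries, and their levels spanned from 2.82 ± 0.488 TPM for Chrna5 to 121 ± 16.6 TPM for Lynx1 (SD, n = 2). The order was Lynx1, Chrm1, Ache, Chrm3, Chrna4, Chrm4, Chrna7, Chrnb2, Chrm2 and Chrna5, and the second quantification gave the same order. For each of the 9 neighbouring pairs in this order the values of the 2 libraries did not overlap, in either quantification. The closest neighbours were Chrna7 and Chrnb2, whose mean levels differed 1.12-fold, Chrna4 and Chrm4 (1.13-fold), and Chrm3 and Chrna4 (1.17-fold). For these closest neighbours the authors' interval bounds of TPM overlapped in part. Those of Chrna7 (12.39 to 14.56) and Chrnb2 (11.28 to 12.44) overlapped in replicate 1, and they did so in replicate 2. Those of Chrna4 and Chrm4, and of Chrm3 and Chrna4, overlapped in replicate 2 and not in replicate 1. The ratios between neighbours also carry the transcript lengths that the authors' quantifications assume. With 2 libraries of 1 group an exact test cannot go below p = 0.5, so levels and ratios are given without a test.

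**Figure D1:**
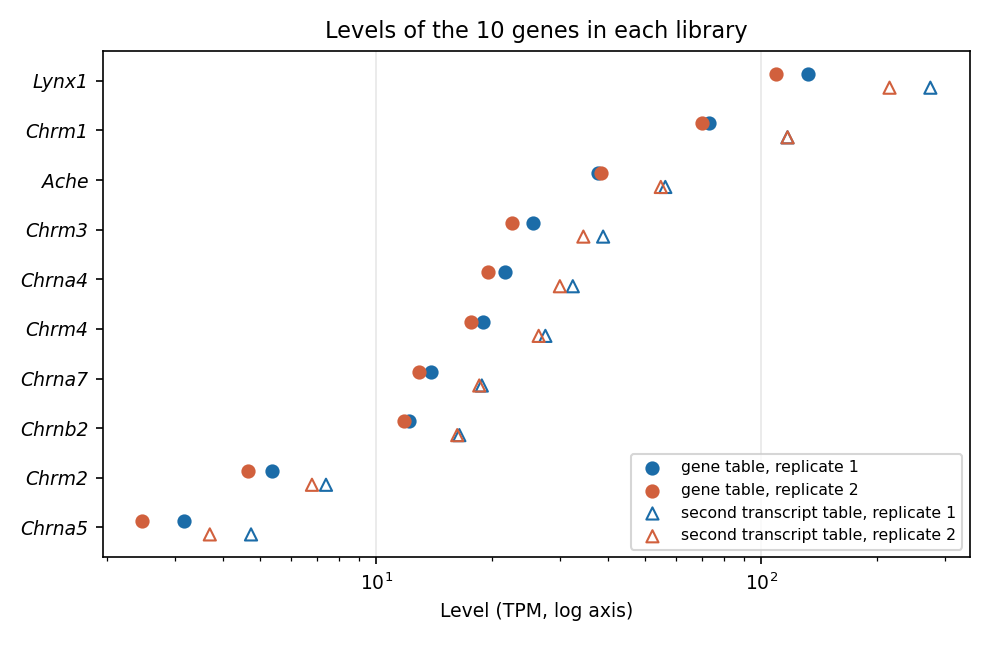
Levels of the 10 genes in TPM on a log axis, with filled circles for the gene table, open triangles for the second quantification, blue for replicate 1 and orange for replicate 2. Lynx1 is highest and Chrna5 lowest by both symbols, and the triangles of Lynx1 lie further to the right of its circles than those of any other gene shown.

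Chrm1, the M1 receptor, was the highest of the receptor genes, with 73.3 TPM in the first library, replicate 1, and 70.2 TPM in the other (71.8 ± 2.23). It lay above 93.4% and 92.9% of nuclear protein-coding genes. Chrm3, the M3 receptor, stood at 25.5 and 22.5 TPM (24.0 ± 2.16), so that both Gq-coupled members were above the Gi-coupled ones in each library. Chrm4, the M4 receptor, stood at 18.9 and 17.7 TPM (18.3 ± 0.898). Chrm2, the M2 receptor, which in cortex is known on cholinergic terminals and on some interneurons, stood at 5.35 and 4.63 TPM (4.99 ± 0.509), the lowest of the 4. Chrm4 also marks striatal projection neurons, and the striatal markers in these libraries are set beside its difference further down.

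Within a library, Chrm1 exceeded Chrm3 by 1.58 ± 0.08 on the log2 scale (2.99-fold), Chrm4 by 1.97 ± 0.03 (3.91-fold) and Chrm2 by 3.82 ± 0.10 (14.2-fold), as mean ± SD of the log2 ratio of TPM + 0.1 over 2 libraries. Chrm4 exceeded Chrm2 by 1.86 ± 0.07 (3.62-fold). Chrm3 and Chrm4 lay closest, with a log2 ratio of 0.39 ± 0.06 (1.31-fold). All of these kept their sign in both libraries and both quantifications. With Chrm5 included, Gq-coupled receptors summed to 99.7 and 94.4 TPM and Gi-coupled receptors to 24.3 and 22.3 TPM. The Gq-coupled share of muscarinic TPM was therefore 80.4% and 80.9%, and 81.8% and 82.3% in the second quantification, nearly equal between the libraries.

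The muscarinic genes differ in how their annotated transcripts are built. Chrm1 (mm10 chr19:8663789-8683587, plus strand) has 2 leading models with the same reading frame of 460 codons, all of it in the last exon. Chrm1-201 took 54.9% and 55.2% of the gene's expected counts and Chrm1-202 took 44.5% and 44.4%. Chrm1-202 has an added non-coding exon of 92 nucleotides and runs 2020 nucleotides further at its 3′ end, so the shares describe transcript ends and leaders and not different proteins. The second quantification gave 57% and 55% for Chrm1-201. There Chrm1-203, a model of 1054 nucleotides picked out after its values were seen, took 2.66% and 3.22% of counts but 14.7% and 17.5% of the gene's TPM. In the first it took 2.51% and 2.08% of TPM.

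Chrm3 (chr13:9875486-10360847, minus strand) was carried by Chrm3-202, with 91.6% and 89.6% of counts, whose 5 exons spread over most of this long locus. Chrm3-201, a model of the 1770 coding nucleotides alone, took 6.19% and 6.37%, and both encode the same 589 codons. Chrm2 (chr6:36388084-36528414, plus strand) had all of its 640 and 531 counts on Chrm2-202. Chrm4 (chr2:91927249-91928688, plus strand) has 1 annotated model, Chrm4-201, which holds its 1440 coding nucleotides only. Its level thus rests on 545 and 487 reads over a short model without untranslated regions.

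Among the nicotinic subunits Chrna4, the alpha4 subunit, was the highest, at 21.7 and 19.5 TPM (20.6 ± 1.5). Chrna7, the alpha7 subunit, which forms fast calcium-permeable channels by itself, stood at 13.9 and 12.9 TPM (13.4 ± 0.686). Chrnb2, the beta2 subunit that partners alpha4, stood at 12.2 and 11.8 TPM (12 ± 0.276). Chrna5, an accessory subunit known from layer 6 pyramidal cells, was the lowest at 3.16 and 2.47 TPM (2.82 ± 0.488). The 4 subunits together reached 50.9 and 46.7 TPM, less than Chrm1 alone in each library.

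Chrna4 exceeded its usual partner Chrnb2 1.71-fold: the log2 ratio of Chrnb2 over Chrna4 was -0.77 ± 0.07 (SD, n = 2). Chrna4 was also above Chrna7, by 0.62 ± 0.03 on the log2 scale (1.53-fold), and above Chrna5, by 2.84 ± 0.14 (7.14-fold). Chrnb2 and Chrna7 were near each other, with Chrna7 1.12-fold higher in the first quantification and 1.14-fold higher in the second. The level of Chrnb2 (chr3:89746195-89764632, minus strand) carries a limit. Its exons share 1365 bases, 16.3% of its exon bases, with Adar on the opposite strand, which stood at 46.8 and 55.5 TPM, and no source used here states the strand setting of the counting.

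Chrna5 (chr9:54980880-55007779, plus strand) had transcript shares that differed widely between libraries and quantifications, on 128 and 108 expected counts. Its leading model by counts was Chrna5-204, with 53.9% in replicate 1 and 76.6% in replicate 2, and with 64.2% and 80.2% in the second quantification. By TPM, which corrects for the length of the models, Chrna5-202 led in replicate 1 of the first quantification, with 52.2% against 43.4%. The 2 models part at the end of exon 1 (chr9:54981533-54981721 in Chrna5-202). Chrna5-202 goes on to exon 2 (chr9:54998012-54998163), whereas Chrna5-204 joins exon 1 to the exon at chr9:55004336-55005159. The junctions are shown because the reading frame depends on them, 5′ to 3′ on the coding strand with 30 bases on each side, and capitals mark the bases after the junction.
Chrna5-202, exon 1 to exon 2: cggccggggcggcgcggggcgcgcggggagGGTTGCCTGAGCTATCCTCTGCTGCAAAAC
Chrna5-204, exon 1 to its second exon: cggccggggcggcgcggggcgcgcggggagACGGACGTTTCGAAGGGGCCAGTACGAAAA
Chrna5-202, exon 4 to exon 5: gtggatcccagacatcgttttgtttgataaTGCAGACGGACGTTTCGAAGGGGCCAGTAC

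The third line shows that exon 5 of Chrna5-202 begins 5 bases earlier than the exon that Chrna5-204 joins: its capitals open with the letters TGCAG and then read as those of the second line. Chrna5-204 lacks these 5 bases and the 307 bases of exons 2 to 4, in all 312 coding bases or 104 codons. The frame is kept across the junction, and 363 codons stand against 467. The codons that are absent come early in the reading frame, where nicotinic subunits carry their extracellular part. Chrna5-204 also has 928 bases found in no other model of the gene, 861 of them after the stop, so its share does not rest on the junction alone, and the tables do not say which reads gave it.

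Counts of the other Chrna5 models depended on the quantification. Chrna5-202 took 45.3% and 23.4% in the first and 19.2% and 1.98% in the second. Chrna5-201, which opens its frame in an earlier first exon than Chrna5-202 and encodes 438 codons, was at 0 in the first and at 16.6% and 17.8% in the second. Only Chrna5-204 was at or above 50% of counts in every library and quantification. The authors' posterior SD of its count was 6.54 and 6.12 reads, against 13.6 and 8.90 reads for Chrna5-202.

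**Figure D2:**
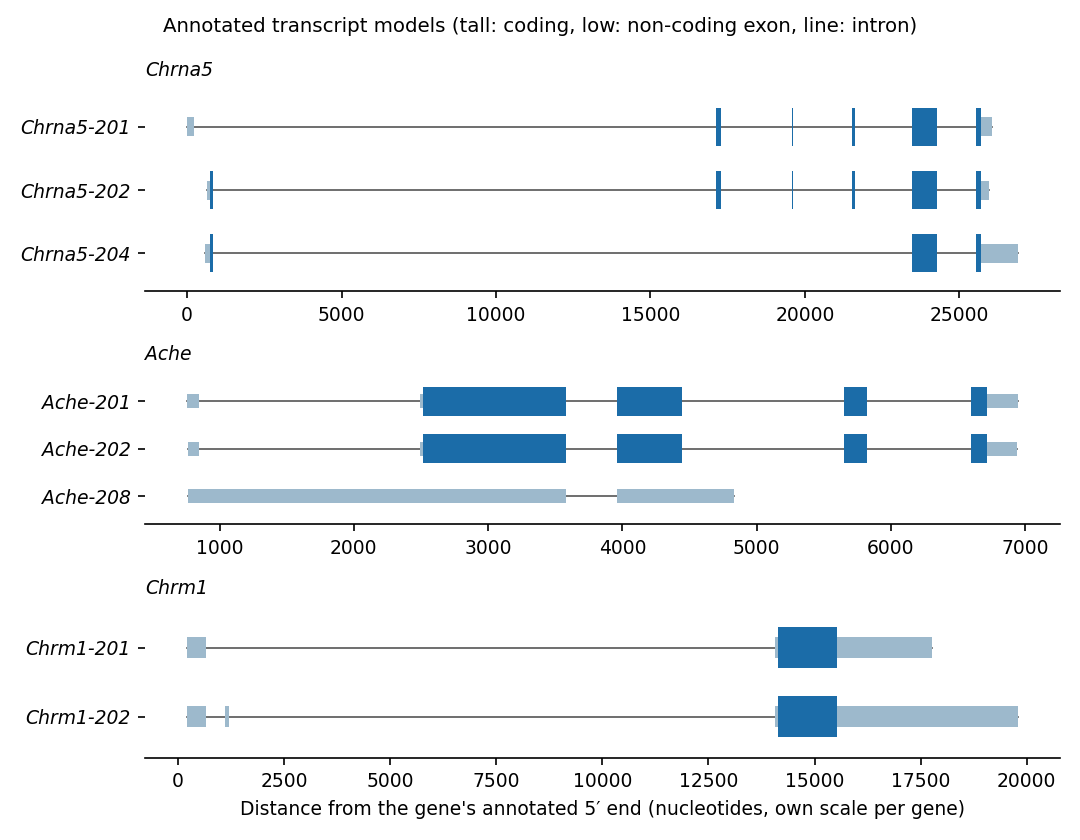
Annotated models of Chrna5, Ache and Chrm1 that took 5% or more of the gene's counts in a library, drawn from the gene's 5′ end in nucleotides with tall dark blocks for coding and low pale blocks for non-coding exon sequence. Chrna5-204 lacks 3 internal exons and has a longer last exon, Ache-208 keeps introns and has no coding block, and Chrm1-202 adds a small second exon and a longer 3′ end.

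Chrna4 (chr2:181018380-181043546, minus strand) was carried by Chrna4-201, with 98.0% and 97.2% of counts, and 95.2% and 93.2% in the second quantification. Chrna4-202 took 1.36% and 2.21% in the first and 4.2% and 6.17% in the second. It replaces the last codons of the frame, so that 641 codons stand against 629. The ends of both frames are shown from the last 30 shared bases to the stop, with capitals where the models part.
Chrna4-201: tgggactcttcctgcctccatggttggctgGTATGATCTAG
Chrna4-202: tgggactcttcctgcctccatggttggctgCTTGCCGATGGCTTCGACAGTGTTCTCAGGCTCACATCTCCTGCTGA

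Chrna7 (chr7:63098692-63212569, minus strand) was carried by its 1 coding model, Chrna7-201, with 97.2% and 96.5% of counts, and 93.2% and 92.2% in the second quantification. The non-coding Chrna7-202 took 2.80% and 3.54%, and 6.79% and 7.82%. Chrnb2-201 held 96.5% and 99.8% of the counts of Chrnb2. For these 3 subunits, unlike Chrna5, 1 model thus held at least 92.2% of counts in each library and quantification.

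Ache, acetylcholinesterase (chr5:137287519-137294466, plus strand), stood at 37.7 and 38.4 TPM (38.0 ± 0.453), above 85.8% and 85.6% of nuclear protein-coding genes. In the gene table it differed least of the 10 between the libraries. Its coding models Ache-201 and Ache-202 have the same reading frame of 614 codons and differ only by 7 bases at the 5′ end, 3 at the start of exon 2 and 6 at the 3′ end. The first quantification split them as 52.1% against 32.8% in replicate 1 and 70.9% against 5.99% in replicate 2. In the second, Ache-202 had 3.01 and 4.81e-08 estimated counts. In replicate 1 the authors' posterior SD was 151 reads for Ache-201 and 152 reads for Ache-202. Their sum was 84.9% and 76.9% in the first quantification, where it moved less between the libraries than either share, and 75.6% and 69.8% in the second.

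Most other counts of Ache went to Ache-208, an annotated transcript with retained introns and no reading frame. It took 15.1% and 22.7% in the first quantification, 270 and 405 expected counts, and 23.9% and 29.9% in the second. The share was higher in replicate 2 in both quantifications. Where spliced Ache-201 joins exon 3 (chr5:137291479-137291963) to exon 4 (chr5:137293168-137293337), Ache-208 reads on into the intron. Both stretches are shown, with capitals after the end of exon 3.
Ache-201, exon 3 to exon 4: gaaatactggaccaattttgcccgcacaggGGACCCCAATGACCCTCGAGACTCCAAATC
Ache-208, exon 3 into the intron: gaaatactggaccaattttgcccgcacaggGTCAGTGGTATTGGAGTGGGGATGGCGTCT

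The capitals of Ache-208 open with GT, the usual first letters of an intron. Ache-208 has 1759 bases that no other Ache model holds. The libraries were made from total RNA, which includes unspliced nuclear RNA, and what part of these reads came from it was not tested. The 3 coding models of Ache with 5 exons share their last coding exon, so the quantifications do not separate the alternative ends for which acetylcholinesterase is known.

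Lynx1 (chr15:74747852-74753046, minus strand) was the highest of the 10 genes, with 132.5 and 109.0 TPM in replicates 1 and 2 (121 ± 16.6), above 96.9% and 96.1% of nuclear protein-coding genes. It exceeded Chrm1 by 0.74 ± 0.15 on the log2 scale (1.67-fold), Ache by 1.66 ± 0.22 (3.15-fold) and Chrnb2 by 3.31 ± 0.17 (9.95-fold). Nearly all of its counts, 99.8% and 99.6%, were on Lynx1-201. Only 351 of the 4023 nucleotides of that model, 8.73%, are coding with the stop, so most of the signal came from a model that is largely untranslated sequence.

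The level of Lynx1 was the one that depended most on the quantification. The second gave 275.2 and 215.6 TPM, 2.03 times the first, where the ratio for the other 9 genes lay between 1.36 and 1.63 and the median over 12946 detected protein-coding genes was 1.49. Lynx1-202, a model of 436 nucleotides picked out after its values were seen, took 84.2 and 57.8 TPM of this, 30.6% and 26.8% of the gene's TPM, on 1.46% and 1.25% of its counts. Lynx1-201 still held 98.4% and 98.6% of the counts, with 12103 and 9418 estimated counts against 10959 and 8479 expected counts in the first quantification. On Lynx1-201 alone the second quantification stood at 189.3 and 155.4 TPM. Under both quantifications Lynx1 remained the highest of the 10.

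**Figure D3:**
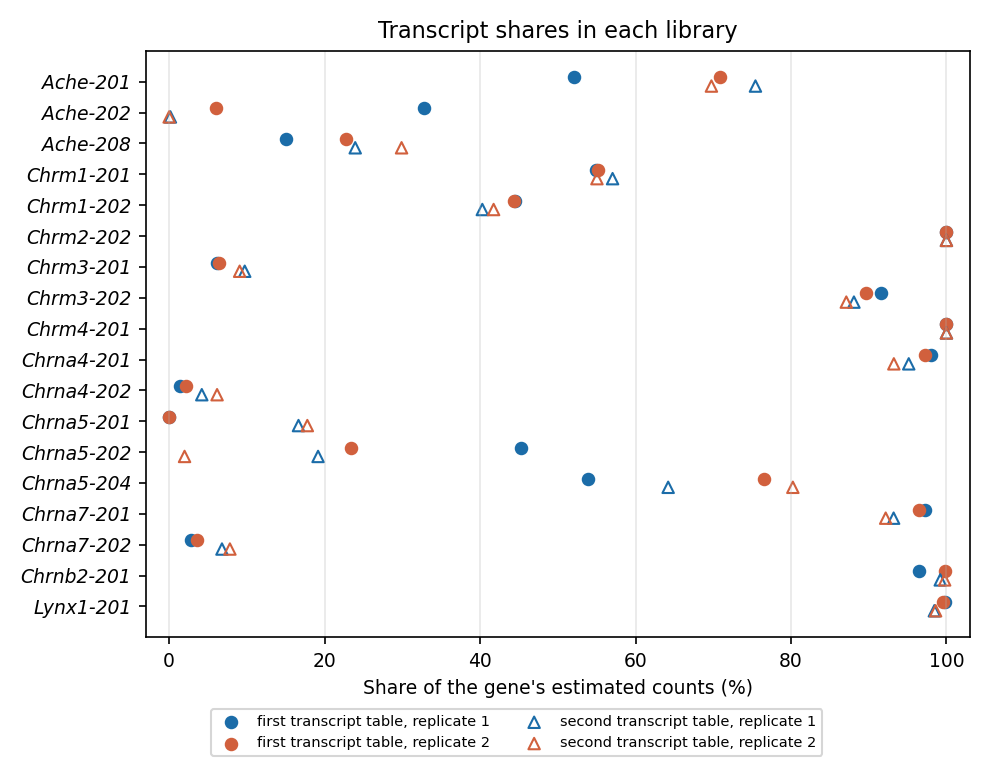
Share of each gene's estimated counts in percent for the 18 transcripts with 5% or more in a library, with filled circles for the first transcript table, open triangles for the second, blue for replicate 1 and orange for replicate 2. The symbols of Chrna5-202, Chrna5-204, Ache-201 and Ache-202 are spread widely, whereas those of Chrm1, Chrm2, Chrm4 and Lynx1 models lie close together.

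The libraries were then compared gene by gene. Lynx1, Chrm1, Chrm3, Chrna4 and Chrm2 were called lower in replicate 2, and none of the 10 was called higher. The test was a two-sided exact binomial test on expected counts with Benjamini-Hochberg adjustment over 18887 genes. It takes counting error alone and compares these 2 libraries, not other mice. Of all tested genes 11.8% were called lower, 8.5% higher and 20.3% in either direction. Among the 12480 genes with 100 counts or more in both libraries, as all 10 genes have, 16.4% were called lower.

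Lynx1 had 10984 counts in replicate 1 and 8516 in replicate 2, and its normalised counts had a log2 ratio of -0.37 ± 0.02 (SE from counting), with an exact binomial adjusted p of 7.54e-68. Chrm3 followed with 2088 and 1654 counts, -0.33 ± 0.05, adjusted p = 4.33e-11. Both lay near the edge of the middle 90% of all tested genes, which ran from -0.35 to 0.45. Chrna4 had 1930 and 1662 counts, -0.21 ± 0.05, adjusted p = 0.000104, and Chrm1, with 7394 and 6795 counts, differed by only -0.12 ± 0.02, adjusted p = 7.46e-06. Chrm2, with 640 and 531 counts, had a ratio of -0.26 ± 0.08 and an adjusted p of 0.0101. That call was lost when libraries were scaled by total counts (exact binomial adjusted p = 0.0632) or spike-ins (0.0533). The call of Chrm1 was kept only narrowly with total counts, at a ratio of -0.06 (exact binomial adjusted p = 0.0497). With spike-ins its ratio was -0.07 (0.026).

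The other 5 genes did not pass the test. Chrm4 had 545 and 487 counts and a log2 ratio of -0.16, with a 95% counting interval from -0.33 to 0.02. Chrna7 had a ratio of -0.16 (-0.33 to 0.01), Chrnb2 of -0.10 (-0.20 to 0.00) and Chrna5 of -0.22 (-0.59 to 0.15). The intervals of these 4 genes also hold the ratio of Chrm1, which was called on far more counts. Ache lay nearest to 0, with 1794 and 1781 counts and -0.01 (-0.11 to 0.08). This gene total includes Ache-208, the model with retained introns, which had 270 and 405 expected counts. The coding models Ache-201 and Ache-202 together took 84.9% of counts in replicate 1 and 76.9% in replicate 2. All 10 ratios were below 0 with TMM scaling, with a median of -0.19 against 0.00 for all tested genes, but that of Ache was 0.05 with total counts and 0.04 with spike-ins. Of all tested genes 50.3% had a ratio below 0.

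The calls rest on counting error. With edgeR and an assumed dispersion of 0.01, in which libraries may differ beyond counting error, 0 of the 10 genes were called and 0 had an unadjusted p under 0.05, against 0.964% of all genes called. The dispersion estimated from these 2 libraries was 0.00781. Scaling also sets the balance of calls over all genes: 41.8% of them were higher in replicate 2 with TMM, 70.5% with total counts and 67.6% with spike-ins, where the median of all genes lay 0.06 and 0.05 higher on the log2 scale. In those scalings 4 of the 10 genes were called lower, against 6.06% and 6.51% of all genes.

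Markers of several cell types also differed between the libraries, where 11.8% of all tested genes were called lower and 8.5% higher. With TMM scaling, 8 of the 9 striatal markers were called lower in replicate 2 with a median log2 ratio of -0.62, among them Ppp1r1b (112.1 and 62.9 TPM) and Drd2 (7.04 and 3.06 TPM), and Tac1 was not (15.2 and 16.5 TPM). Chrm4, which striatal neurons also express, had the smaller ratio of -0.16 given above. Of 8 markers of layers 6 and 6b, where Chrna5 is known, 5 were called lower and 1 higher, with a median of -0.28. The 6 excitatory neuron markers had a median of -0.15, with 5 called lower, and the 7 interneuron markers a median of -0.05, with 2 called lower. The 12 myelin genes had a median of -0.89. With edgeR and the assumed dispersion, 4 of the 9 striatal markers and 11 of the 12 myelin genes were called. It called none of the layer 6 and 6b, excitatory neuron and interneuron markers. The part of any of these marker differences in the ratios of the receptor genes and Lynx1 was not tested.

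**Figure D4:**
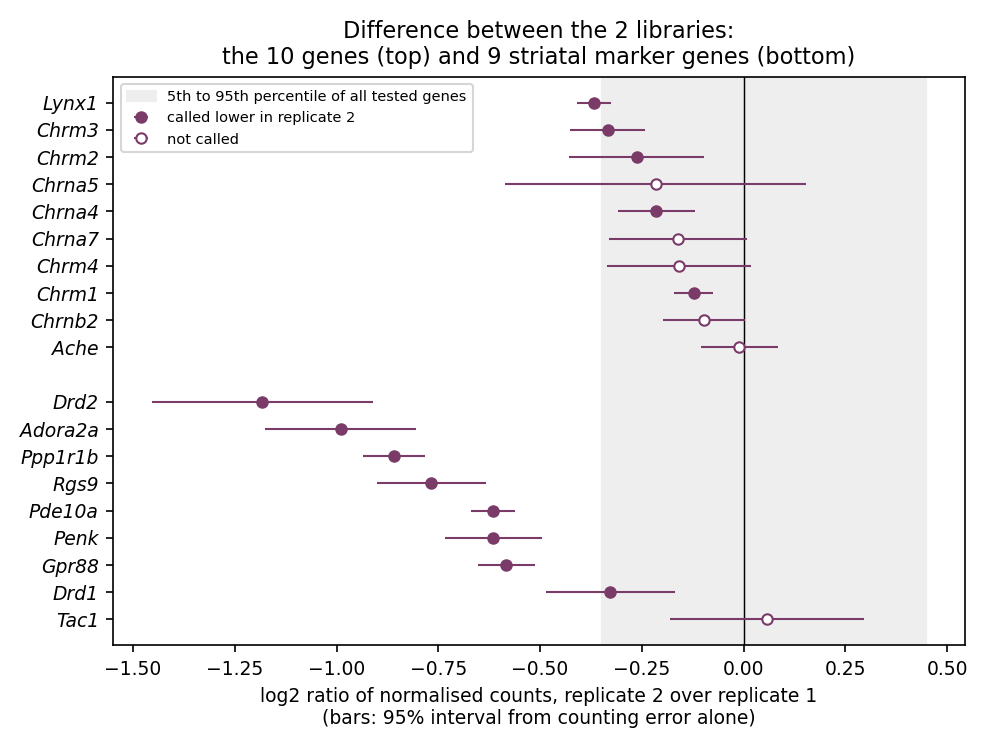
Log2 ratio of normalised counts, replicate 2 over replicate 1, for the 10 genes above and 9 striatal markers below, with bars for the 95% interval from counting error alone, filled points for genes called lower and a grey band for the middle 90% of all tested genes. The 10 genes lie between -0.37 and -0.01, and 7 of the 9 striatal markers lie further left than any of them.

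The remaining genes of the pathway place these members in the tissue. Of 42 further genes in lists of receptors, synthesis, breakdown, chaperones, Ly6 proteins and signalling partners, 24 were detected. Of the 33 tested between the libraries, 4 were called higher, 11 lower and 18 not, where 8.5% of all tested genes were called higher and 11.8% lower. With total counts 5 of the 33 were called higher and 5 lower, and with spike-ins 4 and 6. Of all 18887 tested genes 2733 were called higher and 1145 lower (6.06%) with total counts. With spike-ins these were 2570 and 1229 (6.51%). The surplus of lower over higher calls in the lists thus depends on the scaling. Chrm5, the M5 receptor, had 26 and 53 counts, 0.81 and 1.72 TPM, far below the other muscarinic receptors, and was called higher in replicate 2 (0.71 ± 0.35 on the log2 scale, exact binomial adjusted p = 0.0199). With edgeR and the assumed dispersion, neither Chrm5 (edgeR adjusted p = 0.468) nor any other gene of these lists was called.

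Neuronal nicotinic subunits outside the 4 described were low. In the gene table none of Chrna2, Chrna3, Chrna6, Chrnb3 and Chrnb4 reached 1 TPM in both libraries, and the highest was Chrna3, known from the habenula and autonomic ganglia, at 0.97 and 0.96 TPM. None of the 2 sensory and 5 muscle subunits did so either, and Chrnd had 0 counts in both, where 3 counts would be 0.0899 and 0.0937 CPM, which are counts scaled to the total of gene counts. Chrna4, Chrna7, Chrnb2 and Chrna5 were thus the only neuronal nicotinic subunits of the lists at 1 TPM or more in both libraries of the gene table. In the second quantification Chrna3 (1.32 and 1.44 TPM) and Chrnb3 (1.48 and 1.12 TPM) reached it as well.

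Genes that make and load acetylcholine were near the detection limit of 1 TPM. Chat, which makes the transmitter, stood at 0.44 and 0.58 TPM, Slc18a3, which loads it into vesicles, at 1.01 and 1.16 TPM, and Slc5a7, the choline transporter, at 0.72 and 0.86 TPM. Of the 6 basal forebrain cholinergic markers, which include these 3, only Slc18a3 was detected. Ache, which splits the transmitter, was thus at much higher levels than the genes of its synthesis. Bche, the other cholinesterase, stood at 1.44 and 1.6 TPM. Of the genes that anchor Ache, Prima1, its membrane anchor in brain, stood at 3.91 and 3.06 TPM, and Colq, its collagen tail, at 2.18 and 1.46 TPM (called lower, exact binomial adjusted p = 0.0104).

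Both chaperones that help nicotinic receptors assemble were well above the alpha7 subunit they serve. Ric3 stood at 25.6 and 23.3 TPM and Tmem35a, also named NACHO, at 28.4 and 33.5 TPM. Ric3 was called lower in replicate 2, but not with total counts (exact binomial adjusted p = 0.0688) or spike-ins (0.0509). Tmem35a was called higher, but not in the second quantification (0.0637). Among 8 further Ly6 family genes 5 were detected, and Slurp1, Slurp2 and Psca had 0 counts in both libraries. In the gene table Ly6h (162 and 204 TPM) and Ly6e (141 and 132 TPM) stood above Lynx1 in each library, and Lypd1, also known as lynx2, stood at 53.1 and 66.3 TPM. Lypd6 (13.8 and 10.7 TPM) and Lypd6b (6.46 and 5.04 TPM) were lower. Ly6h and Lypd1 were called higher in replicate 2, and Lypd6 lower, by the exact binomial test under each scaling and in both quantifications, but not by edgeR. Ly6e and Lypd6b were called lower with TMM, and with total counts neither was (exact binomial adjusted p = 0.171 and 0.0509).

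The partners of muscarinic receptors were all detected. Of 7 genes of the Gq arm and the M-current, the potassium current that Gq-coupled muscarinic receptors close, 4 were called lower and none higher with TMM scaling, with a median log2 ratio of -0.06, against 11.8% of all genes called lower. Of these, Kcnq3 was not called with total counts or spike-ins, where its ratio was 0.00 and -0.01. Plcb1, the phospholipase downstream of Gq, stood at 85.3 and 80.4 TPM, and the M-current channel subunit Kcnq3 at 72.9 and 66.1 TPM. Of 6 genes of the Gi/o arm Gnao1 and Kcnj3 were called lower with TMM, with a median of -0.03, and neither was with total counts or spike-ins, where the ratio of Gnao1 turned to 0.01. Gnao1, the Go alpha subunit, was the highest at 442 and 449 TPM, and Kcnj3, a channel opened by Gi/o-coupled receptors, stood at 43.6 and 43.2 TPM. Genes of both arms were thus at higher levels than Chrm2 and Chrm4 themselves.

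**Figure D5:**
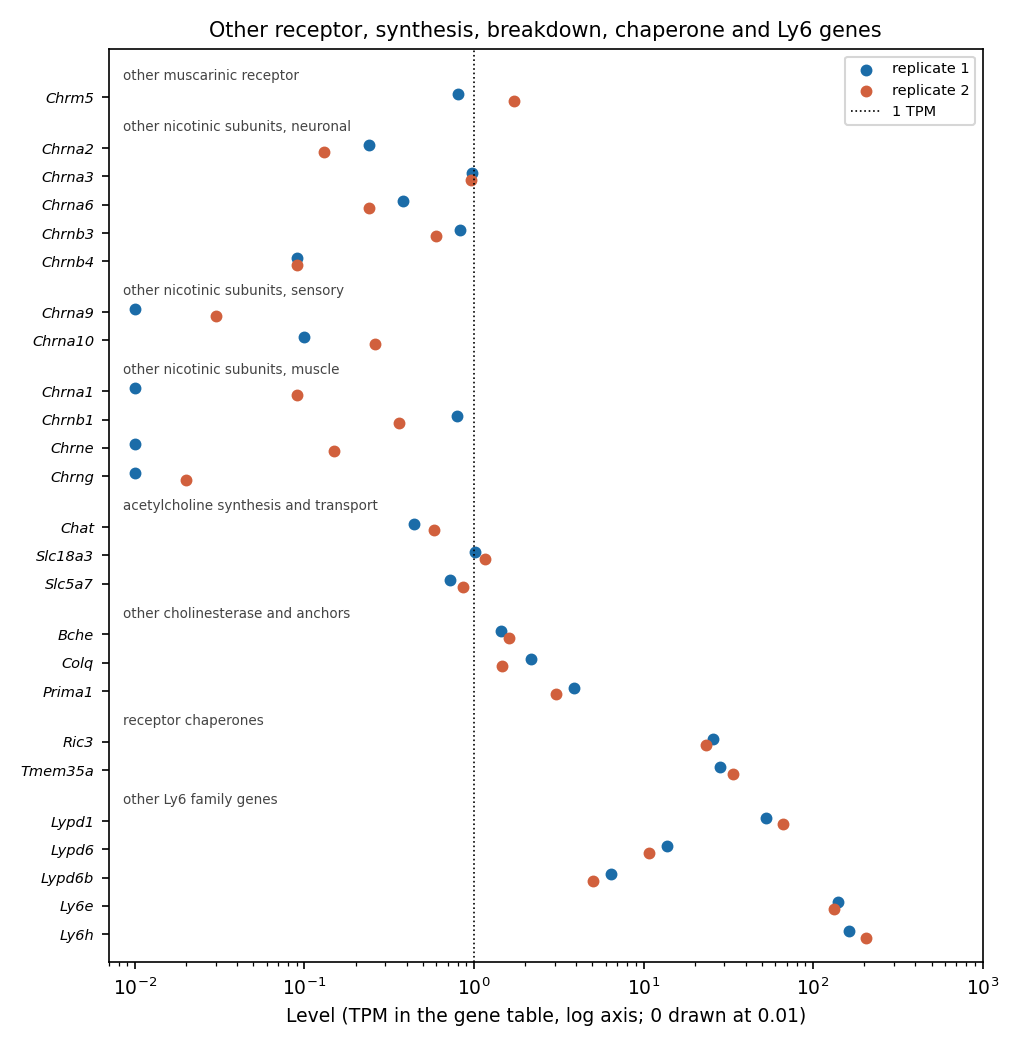
Levels in TPM on a log axis of the other receptor, synthesis, breakdown, chaperone and Ly6 genes with a value above 0, grouped by role, with blue points for replicate 1, orange for replicate 2 and values of 0 drawn at 0.01. Chaperones and 5 Ly6 genes lie to the right of the dotted line at 1 TPM, and the other nicotinic subunits, Chat and Slc5a7 lie left of it.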

How the data were processed

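The authors deposited 3 tables per library: genes and transcripts from a transcriptome alignment, called the first quantification here, and transcripts quantified straight from the reads, the second, on mm10 with GENCODE M21, per the text files deposited with them. No source used here names the tools or strand settings. Expected counts and estimated counts are reads assigned per feature without normalisation, per the file headers. TPM was scaled by the authors over all rows of a table. The percent of a gene taken by each transcript was computed here from the counts, beside the authors' deposited percent of TPM. Length minus effective length was 99 nucleotides in the first tables, and 341.1 and 347.2 in the second. Values of the second table were summed per gene. Alleles of the 2 parent strains were not separated.

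All 55536 gene identifiers matched the annotation, and rows of spike-ins and of numbered sequences that name no gene (1.49e-05% and 1.51e-05% of counts) stayed out of library sizes and tests. The members, lists and pairs were chosen with earlier results of these data known. Named were the 10 members, up to 6 genes per pathway list by mean TPM, marker genes only beside a member's result, and transcripts with 5% or more of a gene's counts. No test compares conditions. The libraries were compared with a two-sided exact binomial test (scipy 1.17.1) on expected counts rounded to whole numbers, with edgeR 4.0.16 TMM sizes (R 4.3.3), for genes reaching 10 counts in either library, and Benjamini-Hochberg adjustment. Log2 ratios are of CPM (counts scaled to equal library sizes) + 0.5, which understates differences of low genes. Their errors are computed from counts alone. The test was tried on data simulated with counting error alone, so the trial cannot show how it behaves where libraries differ beyond that. Alternatives were total counts, DESeq2 1.42.0 size factors, spike-in totals, no filter, the second quantification and edgeR with an assumed dispersion. The labels call the libraries biological replicates and their values are not identical, so they count as 2 samples. Their counts differed beyond counting noise (chi-square 185699 on 18886 degrees of freedom), as separate preparations of 1 sample also could. SDs measure the spread of these 2 samples only, and SEs of the log2 ratios between libraries hold counting error alone.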

Additional observations from a re-analysis of the deposited data

How the results depend on the processing

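With edgeR and an assumed dispersion of 0.01, 0 of the 10 genes were called between the libraries, against 5 with counting error alone. With total counts, DESeq2 size factors, spike-ins, no filter and the second quantification, 4 to 5 were called, and the call of Chrm2 was the one lost, with total counts and spike-ins. The call of Chrm1 stood near the threshold with total counts (exact binomial adjusted p = 0.0497). No called direction changed under these alternatives. All 10 genes were detected, and 13 of 15 pairs had the first-named gene higher, under each alternative run for them, including the libraries taken singly. Levels in TPM moved by more than the replicate SD for 10 of 10 genes in the second quantification, and for 10 of 10 when scaled to protein-coding genes, where Lynx1 stood at 249 TPM in place of 121. That scaling multiplies all genes of a library by the same factor. The second quantification was 1.49 times the first at the median detected protein-coding gene. These counts of moved genes thus reflect a general change of scale and show nothing particular to the 10 genes. Shares moved beyond their SD for 13 of 18 transcripts in the second quantification, among them Chrna5-202 (means of 34.4% and 10.6%) and Ache-202 (19.4% and 0.0798%). The leading transcript by mean share was the same throughout, although Chrna5-202 led by TPM in replicate 1. No paired analysis was possible because there is 1 group. Of the 10 genes, Chrna5 had the fewest counts, 128 and 108. Of the 33 other pathway genes tested, 11 were called lower with TMM, 5 with total counts and 6 with spike-ins. The shares of all genes called lower were 11.8%, 6.06% and 6.51%.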
